A study of Homo sapiens with 2 samples.

Results

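The mitotic kinases described here are 10 genes, CDK1, WEE1, PLK1, PLK4, AURKA, AURKB, NEK2, TTK, BUB1 and BUB1B. They were read through all probe sets of the deposited table that the platform annotation gives to one of these symbols alone, which were 24 of 54675 probe sets. The study silenced CTNNB1, the gene of beta-catenin, in the established human line HCC15, a lung cancer line that the labels call squamous. The series title gives the aim as finding Wnt targets in lung cancer of the non-small-cell type with mutated CTNNB1. One group was a culture given a control siRNA and the other a culture given CTNNB1 siRNA, each with 1 biotin-labelled Affymetrix array and therefore no replicate. Cells grew in RPMI medium with 5% serum, and the protocol gives collection at 48 h after transfection. The control sample's title holds the word Tax and no label names the target of its siRNA. The treatment protocol speaks of tRNA, while the molecule field gives total RNA. Neither label says that more than 1 culture was sampled, so every difference below is one between these 2 arrays, and no test between conditions was possible.

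Mitotic kinases are the enzymes that drive a cell into and through division. CDK1, bound to a cyclin, starts mitosis, and WEE1 holds it back by phosphorylating it. PLK1 and the Aurora kinases build the spindle and correct chromosome attachment, PLK4 starts the copying of centrioles, and NEK2 helps to separate centrosomes. TTK, BUB1 and BUB1B form the spindle checkpoint, which delays chromosome separation until the chromosomes are attached. Most of these genes are transcribed mainly in G2 and mitosis, through promoters that often carry CCAAT boxes, bound by the factor NF-Y, and a cell cycle genes homology region (CHR), bound by MuvB complexes.

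These promoters are shown because the CHR and CCAAT boxes are the elements known for such genes, and a relation between them and the ratios was not tested. RefSeq's table on GRCh38.p14 matched 7 of the 10 genes, BUB1, BUB1B, CDK1, NEK2, PLK1, PLK4 and AURKB, with 11 entries, since AURKB, CDK1 and PLK4 have several start sites. Each run below gives the 250 bases before the most upstream start site in the table, read 5′ to 3′ on the gene's strand. Capitals mark a CHR (TTTGAA or TTCGAA) or CCAAT on either strand, so that ATTGG is a CCAAT on the opposite strand.
PLK1, chr16:23678639-23678888, plus strand: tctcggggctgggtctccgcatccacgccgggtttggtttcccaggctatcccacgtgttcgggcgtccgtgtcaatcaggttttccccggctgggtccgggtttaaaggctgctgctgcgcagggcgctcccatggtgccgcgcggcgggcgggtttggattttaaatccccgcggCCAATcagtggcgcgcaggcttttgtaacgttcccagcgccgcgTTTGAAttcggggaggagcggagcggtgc
BUB1, chr2:110678064-110678313, minus strand: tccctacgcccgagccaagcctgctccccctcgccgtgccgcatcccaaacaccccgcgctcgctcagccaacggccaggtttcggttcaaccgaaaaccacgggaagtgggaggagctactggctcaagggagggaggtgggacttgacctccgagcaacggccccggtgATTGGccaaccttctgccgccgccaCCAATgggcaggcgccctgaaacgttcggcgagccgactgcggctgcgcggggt
CDK1, chr10:60778081-60778330, plus strand: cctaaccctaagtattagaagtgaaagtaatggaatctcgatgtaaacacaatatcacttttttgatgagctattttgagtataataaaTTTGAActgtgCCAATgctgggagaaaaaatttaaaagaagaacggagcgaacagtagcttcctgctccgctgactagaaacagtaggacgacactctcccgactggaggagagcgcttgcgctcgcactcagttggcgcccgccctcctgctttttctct
AURKB, chr17:8210250-8210499, minus strand: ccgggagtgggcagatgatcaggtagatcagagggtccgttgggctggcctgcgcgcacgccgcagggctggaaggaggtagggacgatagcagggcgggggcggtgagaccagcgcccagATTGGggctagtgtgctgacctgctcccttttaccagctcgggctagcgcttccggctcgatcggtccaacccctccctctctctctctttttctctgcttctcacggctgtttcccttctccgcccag
PLK4, chr4:127880643-127880892, plus strand: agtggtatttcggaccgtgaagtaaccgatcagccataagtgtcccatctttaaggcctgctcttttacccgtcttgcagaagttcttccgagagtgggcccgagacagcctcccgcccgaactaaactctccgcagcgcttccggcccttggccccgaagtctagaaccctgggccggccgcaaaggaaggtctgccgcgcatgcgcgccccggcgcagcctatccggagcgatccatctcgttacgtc

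A CHR was found in 6 of the 11 entries within the table's window of 250 bases before to 50 after a start site, against 16.4% of all 35116 promoter entries. CCAAT was found in 8 of the 11, against 34.6% of all entries. The 2 AURKB entries overlap and hold the same CCAAT. By gene, 5 of the 7 had an entry with a CHR and 6 of the 7 an entry with a CCAAT. The share by gene over all genes was not computed, and a gene with several entries had more chances of a match. The PLK1 promoter holds a CCAAT with its first base 73 bases before the start and a CHR at 29 bases before it. The BUB1 promoter has a pair of CCAAT boxes at 79 and 54 bases before the start, and its CHR lies past the printed run, at base 2 after the start. At CDK1 a CHR and a CCAAT lie 161 and 150 bases before the first start site, and 3 more CHR matches surround the second. The AURKB run holds a CCAAT at 129 bases before the start and no CHR of these letters. The entries of 2 genes not printed hold a CHR at 23 bases before the start for BUB1B and CCAAT boxes at 66 and 34 bases before it for NEK2. The printed PLK4 run holds neither element, although its first entry has a CHR 39 bases after the start and the third entry a CCAAT 86 bases before. The TCF/LEF letters CTTTGAT or CTTTGTT, which mark a common form of the site through which beta-catenin acts, were in 0 of the 11 entries and in 7.61% of all entries. These letters cannot match in register with TTTGAA. A further form of the site, CTTTGAA, contains a CHR and was counted apart, in 1 of the 11 entries, the second of CDK1, and in 4.43% of all entries. A match is only a description of the sequence, and the arrays do not measure binding.

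The targeted gene was lower on the array labelled CTNNB1 siRNA. The brightest CTNNB1 probe set (201533_at) was at 27.7% of the control signal, and the 2 dimmer ones were at 91.3% and 51.0%. Signals are the linear MAS5 intensities deposited by the authors. Log2 ratios are CTNNB1 siRNA over control siRNA, with signals under 13.8 raised to that floor, the 25th percentile of all signals. A probe set passed the signal filter at a mean signal over both arrays of at least 49.1, the median of all signals, and a gene is represented by its brightest such probe set. The pooled SD of log2 ratios between probe sets of one gene, 0.42 over 5791 genes, is the measure of error used below. It leaves out the spread between cultures. Over bright probe sets alone, with a mean signal of at least 209, the same SD was 0.29 over 2883 genes. The brightest probe set of each kinase is of this bright kind. The epithelial markers EPCAM, KRT8, KRT18 and CDH1 passed the filter, as did the mesenchymal markers VIM and ZEB1. Among 6 squamous markers with a probe set of their own, 1 passed it, SOX2 with signals of 60.1 and 41.6, and KRT5, KRT14, DSG3, PKP1 and SERPINB5 did not. The lung adenocarcinoma markers NAPSA and SFTPB passed at signals up to 172, NKX2-1 did not, and of the neuroendocrine markers CHGA, SYP and INSM1 none did. PTPRC and COL3A1, markers of leukocytes and fibroblasts, did not pass, and the endothelial marker PECAM1 did at 96.4 and 80.8.

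With CTNNB1 siRNA, 9 of the 10 mitotic kinase genes had a higher signal than with control siRNA, and PLK4 did not. The log2 ratios ran from -0.13 for PLK4 to 0.94 for AURKB, with a median of 0.64, a 1.56-fold difference. The median of all 12531 genes was 0.15, and 64.0% of all genes had a ratio above 0. None of the 10 genes reached the rule of at least 2-fold, which 4.67% of all genes passed, 2.29% upward and 2.38% downward. Of the 24 probe sets, 20 were above 0, 3 were below it and 1 had both signals under the floor, while 44.2% of all probe sets were above 0. That share is not a like baseline, since 27151 of all 54675 probe sets passed the signal filter, against 20 of these 24. Among the 20 that passed the signal filter, 17 were above 0, against 62.5% of all probe sets that passed. Neither this share nor the 64.0% of genes is matched for signal. Of the 1253 genes in the brightest of 10 groups of like signal, 89.9% were above 0. In a bulk culture, a larger share of cells in G2 and mitosis and more RNA per such cell cannot be told apart.

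**Figure D1:**
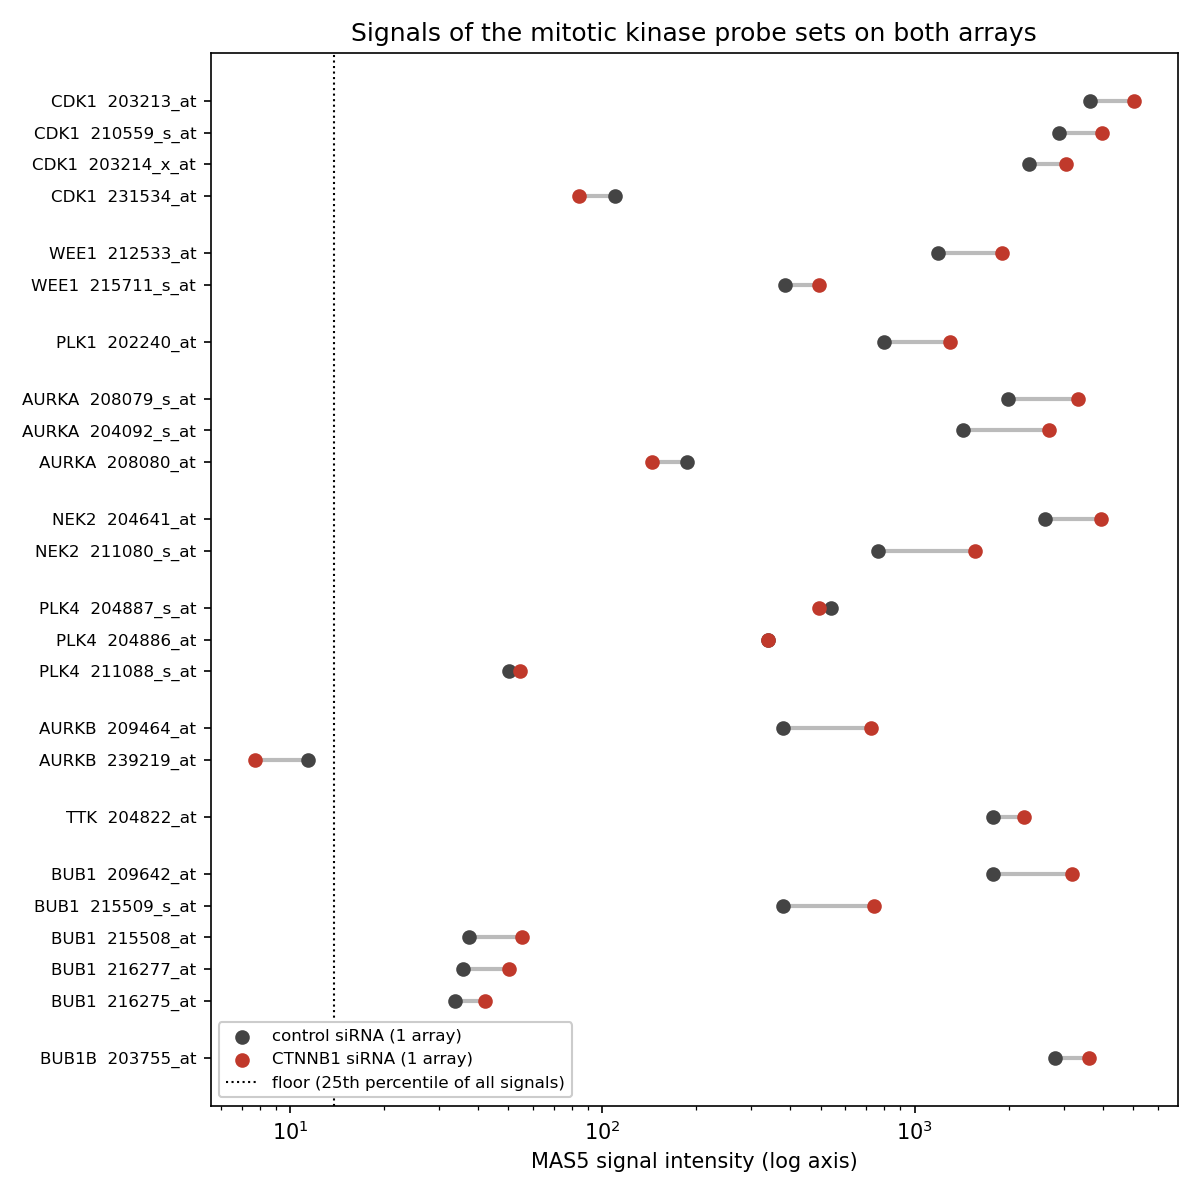
MAS5 signal intensity (log axis) of each of the 24 mitotic kinase probe sets on the control siRNA array (grey points) and the CTNNB1 siRNA array (red points), with the floor of 13.8 as a dotted line; each point is 1 array and there are no error bars. The red point lies to the right for most probe sets, to the left for the dim probe sets of CDK1, AURKA and AURKB (the last with both points under the floor), and close to the grey one for all 3 PLK4 probe sets.

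CDK1, the kinase that starts mitosis, had 4 probe sets. The brightest (203213_at) read 3658 with control siRNA and 5025 with CTNNB1 siRNA, a log2 ratio of 0.46. The next (210559_s_at) read 2910 and 3983, and the third (203214_x_at) 2316 and 3043, so that these 3 lay between 131% and 137% of the control. Their log2 ratios, from 0.39 to 0.46, were closer together than the probe set SD. The fourth (231534_at) is dim, with 110 and 83.9, and it went the other way at a log2 ratio of -0.38.

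WEE1, the kinase that inhibits CDK1 until a cell is ready to divide, was higher as well. Its brighter probe set (212533_at) read 1187 and 1910, a log2 ratio of 0.69, and the dimmer (215711_s_at) 384 and 495, a log2 ratio of 0.37. Both probe sets were higher, and they differed from each other by 0.32. CDK1's ratio was below that of its inhibitor by 0.23 on the log2 scale. Both differences were less than 0.60, the SD of a difference of 2 probe sets, below called the error of a pair of probe sets. This error comes from the SD of 0.42 over bright and dim probe sets. It would be smaller from the 0.29 of bright ones.

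PLK1, a kinase of mitotic entry and spindle assembly, had a single probe set (202240_at). Its signal was 797 on the control array and 1294 after CTNNB1 silencing, which is 162% of the control, a log2 ratio of 0.70. No second probe set could be set beside it.

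AURKA, which matures centrosomes and organises the spindle poles, was among the higher genes on its bright probe sets only. The brightest (208079_s_at) read 1994 and 3343, a log2 ratio of 0.75, and the second (204092_s_at) 1424 and 2701, a log2 ratio of 0.92. The dim one (208080_at) read 187 and 144, a log2 ratio of -0.38. The AURKA probe sets therefore spanned 1.30 on the log2 scale, the widest range among the 6 kinases with several probe sets over the filter. The bright ones both carry names ending in _s_at, which can take signal from related transcripts, and without such probe sets AURKA was represented by the dim one and its sign turned to -0.38.

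NEK2, a centrosome kinase, held the one mitotic kinase probe set past 2-fold. Its brightest probe set (204641_at) read 2608 and 3940, a log2 ratio of 0.60. The other (211080_s_at) had signals of 764 and 1566, a log2 ratio of 1.04 at 205% of the control. This was 1 of the 20 mitotic kinase probe sets over the signal filter, while 5.90% of all probe sets over it were at least 2-fold different. The 2 NEK2 probe sets were 0.44 apart, less than the error of a pair of probe sets, 0.60. Both are bright, and for bright probe sets alone that error would be smaller, so 0.60 does not settle whether they differ.

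PLK4, which starts centriole copying and acts before mitosis, was flat on all 3 probe sets. They read 540 and 494 (204887_s_at), 338 and 340 (204886_at), and 50.2 and 54.4 (211088_s_at). The log2 ratios of -0.13, 0.01 and 0.12 were all under the all-gene median and within the probe set SD of 0. Against the median of genes of like signal they differed by -0.32, -0.13 and 0.35, so the dimmest lay above such genes. The log2 ratio of its brightest probe set was below that of PLK1 by 0.83 and below that of AURKB by 1.07, both more than the error of a pair of probe sets, 0.60. The sign of PLK4 depended on the scaling, from -0.35 after quantile normalization to 0.01 with both arrays scaled to a common median.

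AURKB, the catalytic subunit of the chromosomal passenger complex, had the highest ratio of the 10. Its bright probe set (209464_at) had signals of 379 and 726, a log2 ratio of 0.94 at 191% of the control. The other (239219_at) read 11.4 and 7.70, both under the floor, and gives no ratio. AURKB thus lay just under the 2-fold rule as deposited, and it was past it, at 1.07, with both arrays scaled to a common median. The other normalizations lowered it, to 0.73 (quantile), 0.72 (loess), 0.72 (common 2% trimmed mean) and 0.79 (centring). AURKB and AURKA differed by 0.19, less than the error of a pair of probe sets.

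The 3 checkpoint kinases were all above 0. BUB1, which recruits checkpoint proteins to kinetochores, read 1787 and 3190 on its brightest probe set (209642_at), a log2 ratio of 0.84. Its second (215509_s_at) read 380 and 740, a log2 ratio of 0.96. The 3 others were under the signal filter, with 37.3 and 55.2 (215508_at), 35.7 and 50.3 (216277_at), and 33.7 and 42.0 (216275_at). All 5 BUB1 probe sets were higher with CTNNB1 siRNA, by log2 ratios from 0.32 to 0.96. BUB1 had more probe sets than any other member, and the direction was the same in bright and dim ones.

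BUB1B, which encodes the checkpoint protein BUBR1, had a single probe set (203755_at) that read 2824 and 3628, a log2 ratio of 0.36. TTK, the kinase MPS1 at the head of the checkpoint, had a single probe set (204822_at) that read 1779 and 2247, a log2 ratio of 0.34. Both differences were smaller than the probe set SD of 0.42 and larger than the 0.29 of bright probe sets. BUB1 was above BUB1B by 0.47, which is within the error of a pair of probe sets, 0.60. That error is taken over bright and dim probe sets together, and it would be smaller over bright ones alone, such as these.

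**Figure D2:**
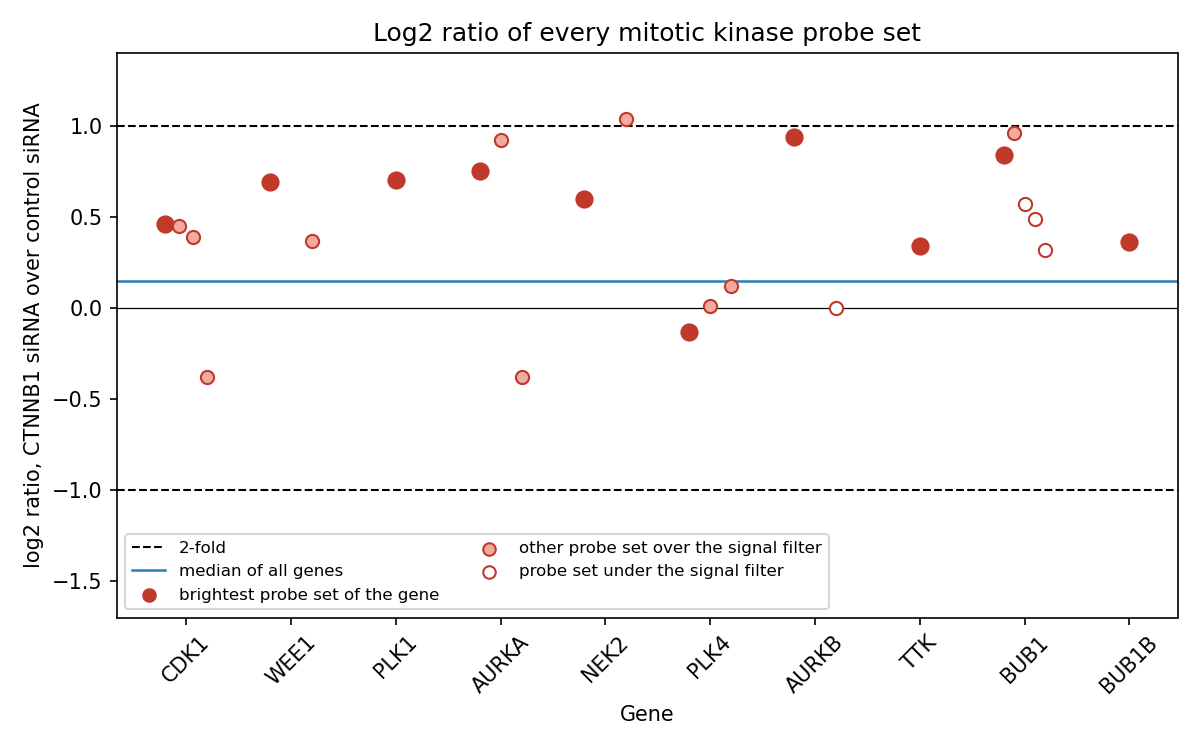
Log2 ratio (CTNNB1 siRNA over control siRNA) of all 24 probe sets by gene, with filled points for the brightest probe set of each gene, pale points for others over the signal filter and open points for those under it; dashed lines mark 2-fold and the blue line the median of all genes. One NEK2 probe set, at 1.04, is past the upper line, 3 probe sets are below 0, and PLK4 sits below the blue line.

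In order of the log2 ratio of the brightest probe set the genes were AURKB, BUB1, AURKA, PLK1, WEE1, NEK2, CDK1, BUB1B, TTK and PLK4. Neighbours in this order were not apart by more than the error of a pair of probe sets, 0.60, which would be smaller for bright probe sets alone. Over the 10 genes the mean was 0.55 and the SD 0.31. Without PLK4 the median of the other 9 was 0.69 and their lowest value 0.34.

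Bright genes were shifted upward on these arrays, so each kinase was also set beside genes of like signal. When the 12531 genes were divided into 10 groups of like mean signal, the median log2 ratio ran from -0.23 in the dimmest group to 0.27 in the brightest. In the brightest group 89.9% of genes were above 0 and 0.559% were at least 2-fold different. The kinases CDK1, AURKA, NEK2, BUB1 and BUB1B, lay in that group of 1253 genes, so a ratio above 0 was the usual finding there. BUB1 had a higher ratio than most of its group, of which 0.958% were above it. The share of genes above the kinase in its own signal group was 2.23% for AURKB, 2.63% for AURKA, 5.83% for NEK2, 7.34% for PLK1 and 8.07% for WEE1. For CDK1 the share was 15.2%, for BUB1B 30.2% and for TTK 41.0%, which placed TTK and BUB1B within 0.09 of their group's median. For PLK4 the share was 82.4%. These shares describe the 2 arrays and are not tests.

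**Figure D3:**
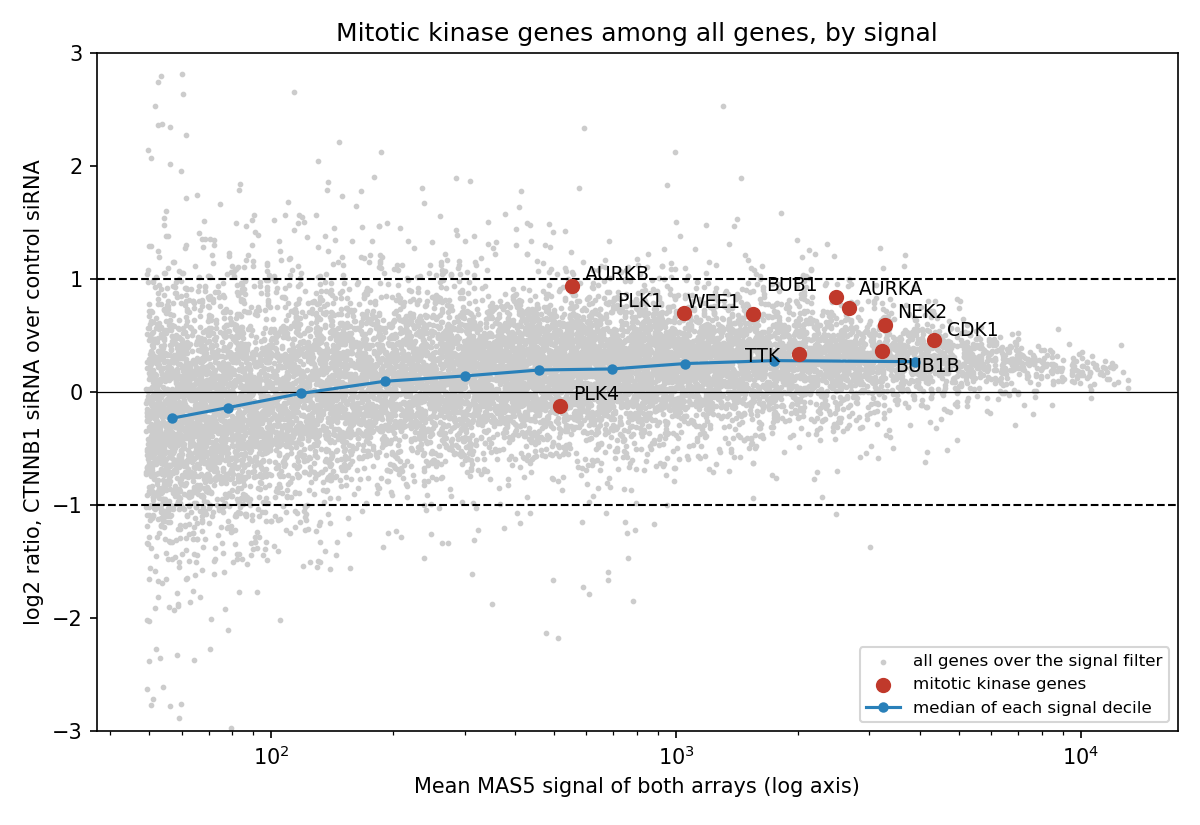
Log2 ratio against mean MAS5 signal (log axis) for all 12531 genes (grey), the 10 mitotic kinase genes (red, named) and the median of each group of like signal (blue); dashed lines mark 2-fold and 3 genes lie outside the plotted range of -3 to 3. BUB1 and AURKA sit near the upper edge of the bright genes, TTK and BUB1B near the blue line, and PLK4 below it.

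After loess, which removes the trend of the ratio with signal, the median of the 10 kinases was 0.37 and that of all genes -0.02. AURKB was then at 0.72, BUB1 at 0.56, AURKA at 0.47, PLK1 at 0.44, WEE1 at 0.41, NEK2 at 0.32 and CDK1 at 0.20. BUB1B and TTK were at 0.09 and 0.06, and PLK4 was at -0.34. The kinases other than PLK4 stayed above the median of all genes in every setting tried, except AURKA without the _x_at and _s_at probe sets. Most of these settings could hardly change this. Centring and scaling shifted the kinases and all genes about alike, and the other floors and filters left the kinase ratios unchanged.

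**Figure D4:**
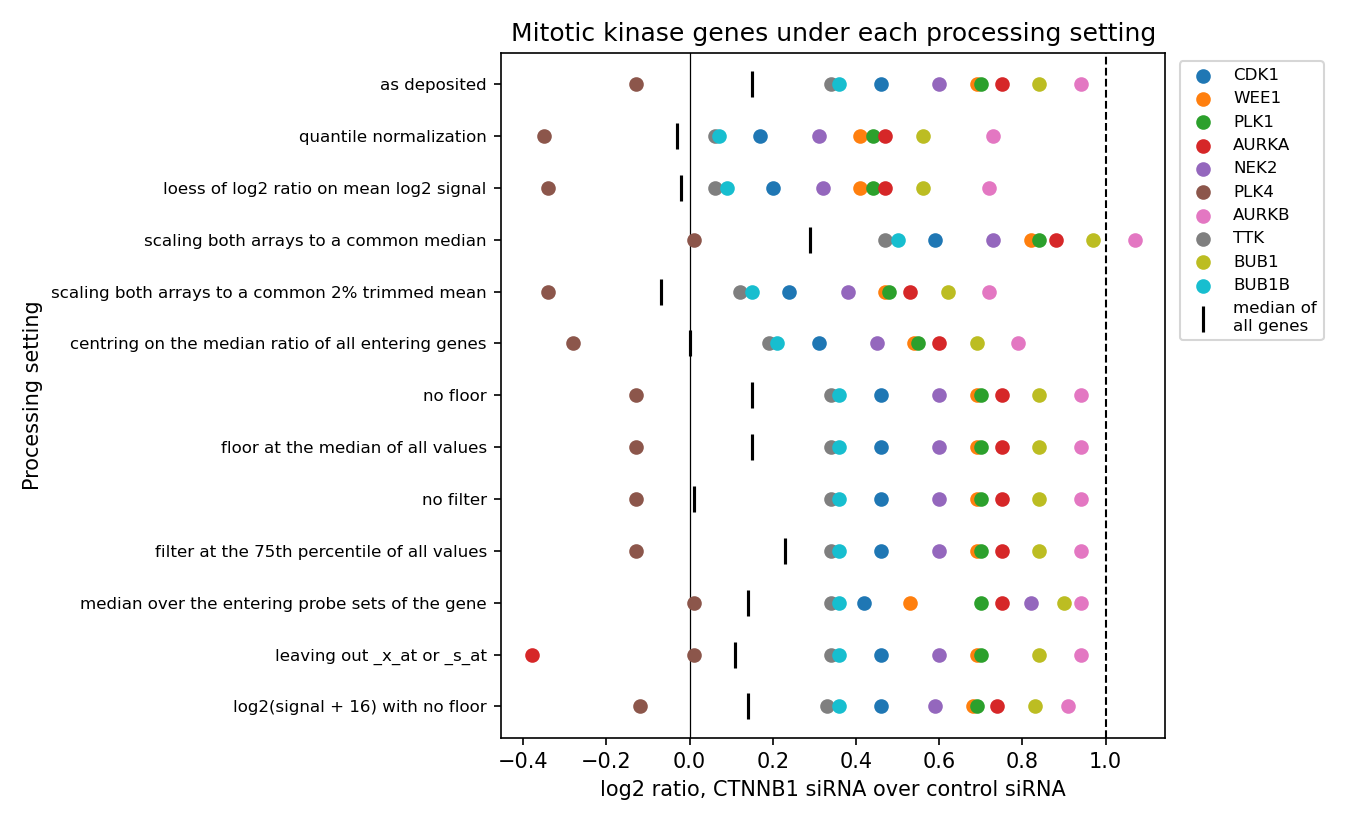
Log2 ratio of each mitotic kinase gene (coloured points) and the median of all genes (black bars) as deposited and under 12 alternative settings, one per row; the dashed line marks 2-fold. AURKB passes 2-fold with scaling to a common median, PLK4 lies below the black bar in every row, and AURKA moves to -0.38 without _x_at and _s_at probe sets.

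The partners of these kinases were described over 8 lists with 95 genes, of which 93 passed the signal filter. One of the 93 was at least 2-fold higher and 0 were at least 2-fold lower, against 2.29% and 2.38% of all genes. With a common median CDC25A and CEP85 passed 2-fold as well, and CDC25A did so with the median over its probe sets. The genes named for each list were fixed by role, and those called the highest or lowest of a list were chosen after their values were seen.

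CDK1's partners and regulators had a median log2 ratio of 0.35 over 9 genes, with 8 above the median of all genes and 0 past 2-fold. Its cyclins CCNB1 and CCNA2 were at 0.25 and 0.17 on their brightest probe sets. A second probe set of each was higher, at 0.67 for CCNB1 (228729_at, 2337 and 3709) and 0.54 for CCNA2 (203418_at, 991 and 1440). PKMYT1, a kinase that inhibits CDK1 as WEE1 does, was at 0.41, and CDC25C, a phosphatase that reverses this inhibition, at 0.35. CDC25A was the highest at 0.87, with 684 and 1249, and its dimmer probe sets were at 1.35 and 1.05. CDC25B was the lowest of the list at -0.31, with 1927 and 1550. As deposited, inhibitors and activators of CDK1 were thus both above 0, except CDC25B.

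The partners of the Aurora kinases had a median of 0.27 over 8 genes, 5 of them above the median of all genes. TPX2, which activates AURKA on the spindle, was at 0.36. Of the subunits that share the passenger complex with AURKB, CDCA8 was at 0.52, BIRC5 at 0.19 and INCENP at 0.14. Other BIRC5 probe sets were at 0.52 (202094_at), 0.51 (210334_x_at) and -0.04 (1555826_at). BORA, a cofactor through which AURKA activates PLK1, was the highest at 0.76.

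PLK4's centriole partners ranged from -0.27 to 0.87. STIL was at 0.76, with 1490 and 2527, CEP152, which recruits PLK4 to the centriole, at 0.83 on its brightest probe set, and SASS6, the cartwheel protein, at -0.27, with 830 and 688. The other CEP152 probe sets over the filter ran from -0.49 to 0.43. The list's median was 0.48 over 7 genes, 4 of them above the median of all genes.

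Checkpoint and kinetochore partners had a median of 0.34 over 10 genes, 8 of them above the median of all genes. CDC20, the target of the checkpoint, was at 0.73, BUB3, which binds BUB1 and BUBR1, at 0.43, MAD2L1 at 0.25 and the kinetochore scaffold KNL1 at 0.21. Other probe sets over the filter ran from -0.06 to 0.79 for BUB3 and from 0.50 to 0.95 for KNL1. MAD2L1BP, whose product helps to switch the checkpoint off, was the one list gene past 2-fold, with 482 and 1036 on its only probe set. Its log2 ratio of 1.10 was under the rule after loess and after quantile normalization, at 0.87, with a common 2% trimmed mean, at 0.89, and after centring, at 0.95.

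Other cell cycle and related kinases had a median of 0.21 over 13 genes, with 0 past 2-fold. PLK3 was at 0.69, PLK2 at 0.39, NEK6 at 0.41, MASTL at 0.23, CHEK1 at 0.11 (0.17 and 0.51 on its other probe sets over the filter) and HASPIN, which marks centromeres for AURKB, at 0.07. PLK2 and PLK3 were thus not above PLK1, nor NEK6 above NEK2, and these differences were within the error of a pair of probe sets. AURKC, the third Aurora kinase, did not pass the signal filter.

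The list of factors that transcribe G2 and mitosis genes had a median of 0.14 over 14 genes, beside 0.15 for all genes, and its members lay on both sides. FOXM1 was at 0.12, MYBL2 at -0.03, LIN9, a MuvB subunit, at -0.05 and RBL2, which binds MuvB in resting cells, at -0.05. Of the 14 genes, 7 were above the median of all genes. The NF-Y subunit gene NFYA was the highest at 0.84 and RBL1 the lowest at -0.37. Other NFYA probe sets over the filter ran from 0.27 to 0.93. A dimmer RBL1 probe set over the filter (1555004_a_at), with 95.4 and 46.4, was at -1.04, past 2-fold lower. The other NF-Y subunits, NFYB and NFYC, were at 0.66 and 0.43 and were also chosen after their values were seen. Their other probe sets over the filter ran from -0.05 to 0.56 for NFYB and from -0.98 to 0.26 for NFYC.

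Genes of the anaphase-promoting complex (APC/C) and mitotic exit had a median of 0.26 over 13 genes. UBE2C, the E2 enzyme of the complex, was at 0.71, its inhibitor FBXO5 at 0.68, the securin gene PTTG1 at 0.33 and ENSA at 0.15, with other ENSA probe sets from -0.30 to 1.05. DNA replication and G1/S genes had a median of 0.18 over 19 genes, 11 of them above the median of all genes. There MCM2 was at -0.12, PCNA at 0.25, CDC6 at 0.17 and CCNE1 at 0.60. As deposited, the 8 lists had medians below the 0.64 of the mitotic kinases, and the difference from the lists was not tested. This order depended on the setting. Without the _x_at and _s_at probe sets the kinases were at 0.53, CDK1's partners at 0.62 and the Aurora partners at 0.52. Only 4 genes of CDK1's list and 5 of the Aurora list remained in that setting. After loess the kinases were at 0.37, and PLK4's partners were at 0.34, the Aurora partners at 0.16, CDK1's partners at 0.09, the checkpoint list at 0.08 and the APC/C list at 0.08. The other kinases, the transcription list and the replication list turned to -0.04, -0.10 and -0.09. Of the checkpoint list, 6 of 10 genes were above the median of all genes after loess and 5 of 10 after quantile normalization.

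**Figure D5:**
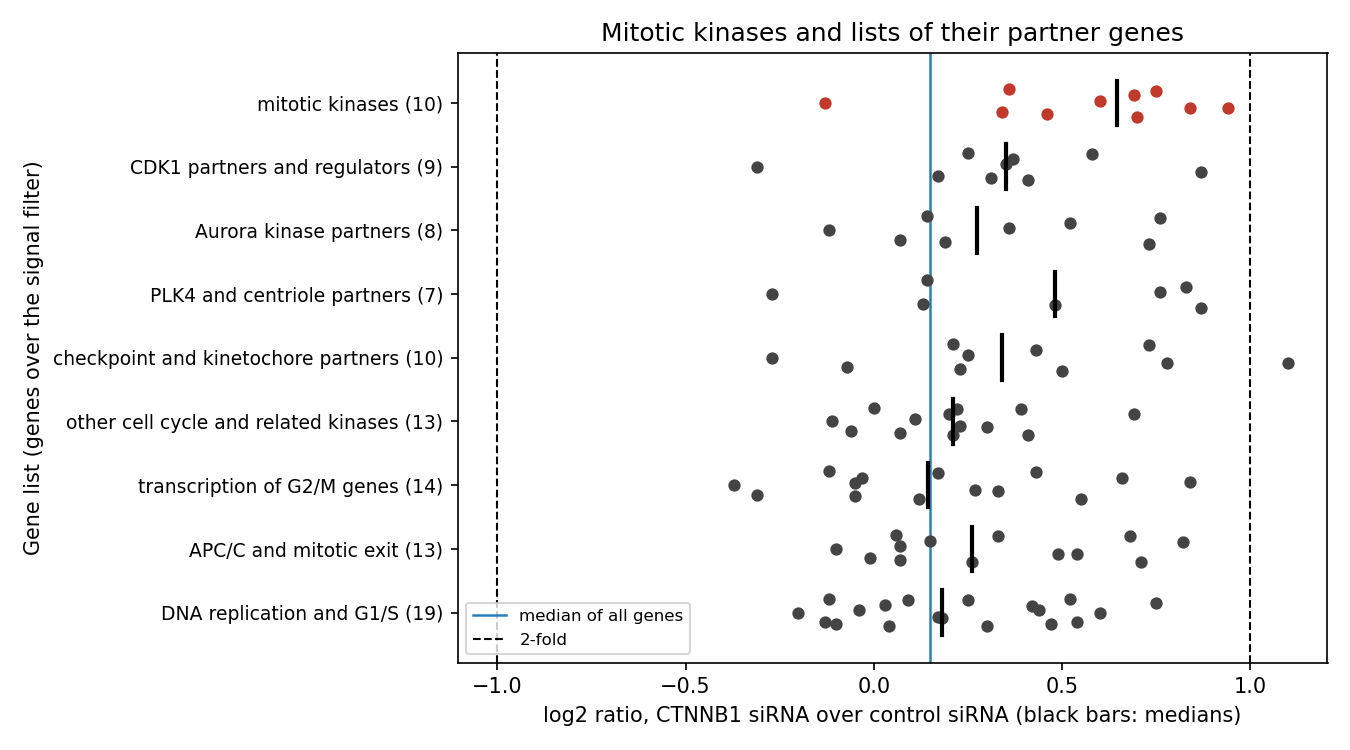
Log2 ratio (CTNNB1 siRNA over control siRNA) of the 10 mitotic kinase genes (red) and of the genes of 8 partner lists (grey), 1 point per gene, with the number of genes over the signal filter in brackets; black bars are medians, the blue line is the median of all genes and dashed lines mark 2-fold. As deposited, the kinases have the rightmost median, 0.64, and MAD2L1BP is the one point past 2-fold.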

How the data were processed

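The values were linear signal intensities for 54675 probe sets on 2 arrays, deposited by the authors and made with MAS5, per the submitters' processing notes; its version and target intensity, and any scaling between arrays, were not given in the sources used here. Their 2% trimmed means were 233 (control siRNA) and 271 (CTNNB1 siRNA). Platform annotation gave 1 symbol to 41097 probe sets, several to 1801, and did not list 11777; 41043 symbols were updated by Entrez number through RefSeq. Members were matched on the platform symbol.

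Log2 ratios, floor and filter were computed in Python 3.11.15 with pandas 2.3.3, and loess with statsmodels 0.14.6 (span 0.3); 27151 probe sets passed the filter. With 1 array per group there was no test. Genes were called at 2-fold. The calculations were tested on simulated arrays. Members and lists were chosen with earlier results of these data known. The genes named were all members with every probe set, CTNNB1, genes fixed by role in each list and any list gene past 2-fold. Also named were the highest or lowest of some lists, NFYB and NFYC, chosen after their values were seen, and AURKC, under the filter. The number of arrays limits the precision. Promoters came from RefSeq (GRCh38.p14). Alternatives were 5 normalizations and other floors, filters, probe set choices and an offset, 12 in all.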

Additional observations from a re-analysis of the deposited data

How the results depend on the processing

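Values without replicates were held to have moved when they changed by more than the probe set SD of 0.42, or 0.13 for the median of the 10 kinases. The median log2 ratio of the kinases, 0.64 as deposited, moved to 0.36 after quantile normalization, 0.37 after loess, 0.43 with a common 2% trimmed mean, 0.49 after centring on the median ratio and 0.78 with a common median, and moved less in the other 7 settings. With a common median 1 kinase, AURKB, was at least 2-fold higher, and in the other 11 settings 0 were. The count of probe sets with a higher signal, 20 of 24, ran from 18 to 21 over the 8 settings that apply to it. Of the single genes AURKA alone moved by this rule, to -0.38 without the _x_at and _s_at probe sets. Shifts under 0.42 could still take most of a small ratio. After quantile normalization TTK went from 0.34 to 0.06, BUB1B from 0.36 to 0.07 and CDK1 from 0.46 to 0.17, while AURKB went from 0.94 to 0.73. The causes were not tested. Detection calls were not used here, so signals near the floor of 13.8 have no order. No paired analysis was possible because each group has 1 array.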
